A study of Mus musculus with 12 samples.

Results

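The 43 genes described here are effectors that interferon is known to induce, outside the Ifit, Oas and Isg15 families. They were taken by symbol from the deposited count table, which holds 55487 distinct genes, and each of the 43 names matched a gene. All 43 passed the filter on low counts, as did 19182 genes in all. By role they were grouped as 2 Mx genes, 4 Trim genes, 5 genes of the Parp group, 3 Slfn genes, 2 Apol9 genes and 4 membrane proteins. The rest were 7 genes of RNA and nucleotide metabolism, 4 listed under nuclear bodies and 7 other effectors. A further group of 5 is made up of Ifi genes and *Nmi*, the binding partner of *Ifi35*. They lie on 13 chromosomes.

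Interferons are secreted proteins that a cell releases when its sensors detect foreign or misplaced nucleic acid. They bind receptors that are coupled to Janus kinases, and these activate STAT proteins which, with *Irf9*, bind a response element in the promoters of many genes. The products of those genes block virus entry, copying and release, edit or degrade RNA, modify proteins with ubiquitin or ADP-ribose, and restrain or extend the signal itself. In microglia, the resident macrophages of brain and retina, a set of these genes is expressed at a low level at rest and is known to rise in ageing, infection and injury.

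The libraries were made, by their source label, from BV2 cells, a line of mouse microglia immortalised with oncogenes. NG cells were kept in normal glucose medium and HG cells in high glucose medium, and NG+CD200Fc and HG+CD200Fc cells had CD200Fc at 50 ng/mL in the same media, with 3 libraries in each of the 4 groups. CD200Fc joins the ligand CD200 to an antibody Fc part and engages the inhibitory receptor CD200R1. Neither glucose concentrations nor the time of exposure were stated in the sources used, no group served as an Fc or osmotic control, and the treatment protocol in the labels speaks of dissected retinas and sorted GFP-positive cells, so the source label was followed. Whether replicates were separate cultures is not stated, so p-values measure the spread between libraries, which may be technical.

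Total counts were 2.15e+07 to 3.19e+07 per library. Of the 14 microglial markers, *Csf1r*, *Cd68* and *Spi1* were at 480.4 CPM or more in every library (CPM are counts scaled to the library total after TMM), while *Cx3cr1* reached at most 4.22 CPM and *P2ry12* 2.62 CPM, and *Sall1* had 1 count in all. HG replicate 2 stood apart: 1.49% of its counts were on genes for ribosomal RNA, and in no other library did these exceed 0.119%. Without it 36 of the 43 genes were higher in HG than in NG, against 37 with it, and 37 were lower in HG+CD200Fc than in HG, against 35. In bulk RNA, fewer cells of a kind and less RNA per cell cannot be told apart.

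In high glucose the interferon effectors were higher almost throughout. Between HG and NG, 37 of the 43 genes were higher, against 11.7% of all genes tested, and 1 was lower (*Ifi27*), against 12.9% of all genes. The median log2 difference was 0.62, against 0.021 over all genes, and 7 genes were at least 2-fold higher, against 2.34% of all genes. Genes were called at an adjusted p under 0.05 by edgeR's quasi-likelihood test with Benjamini-Hochberg adjustment over all 19182 genes, and all differences below are on the log2 scale with the standard error of that model. *Trim21*, *Ifitm3*, *Ly6e*, *Nmi* and *Tor3a* were not called.

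CD200Fc was accompanied by the opposite difference in high glucose and by no call in normal glucose. Between HG+CD200Fc and HG, 35 of the 43 genes were lower, against 8.3% of all genes, and 0 were higher, against 9.46%. At least 2-fold lower were 9, against 1.15% of all genes, and the median was -0.64, against -0.021. Between NG+CD200Fc and NG, 0 of the 43 were called, against 0% of all genes, and the median was -0.023. The difference between these differences (the interaction of glucose and CD200Fc) was called for 30 of the 43 genes, all of them lower, against 3.58% of all genes, and for 0 in the other direction, against 3.62%. The comparisons of HG with NG and of HG+CD200Fc with HG and the interaction all use the same 3 HG libraries. They are not independent of each other.

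**Figure D1:**
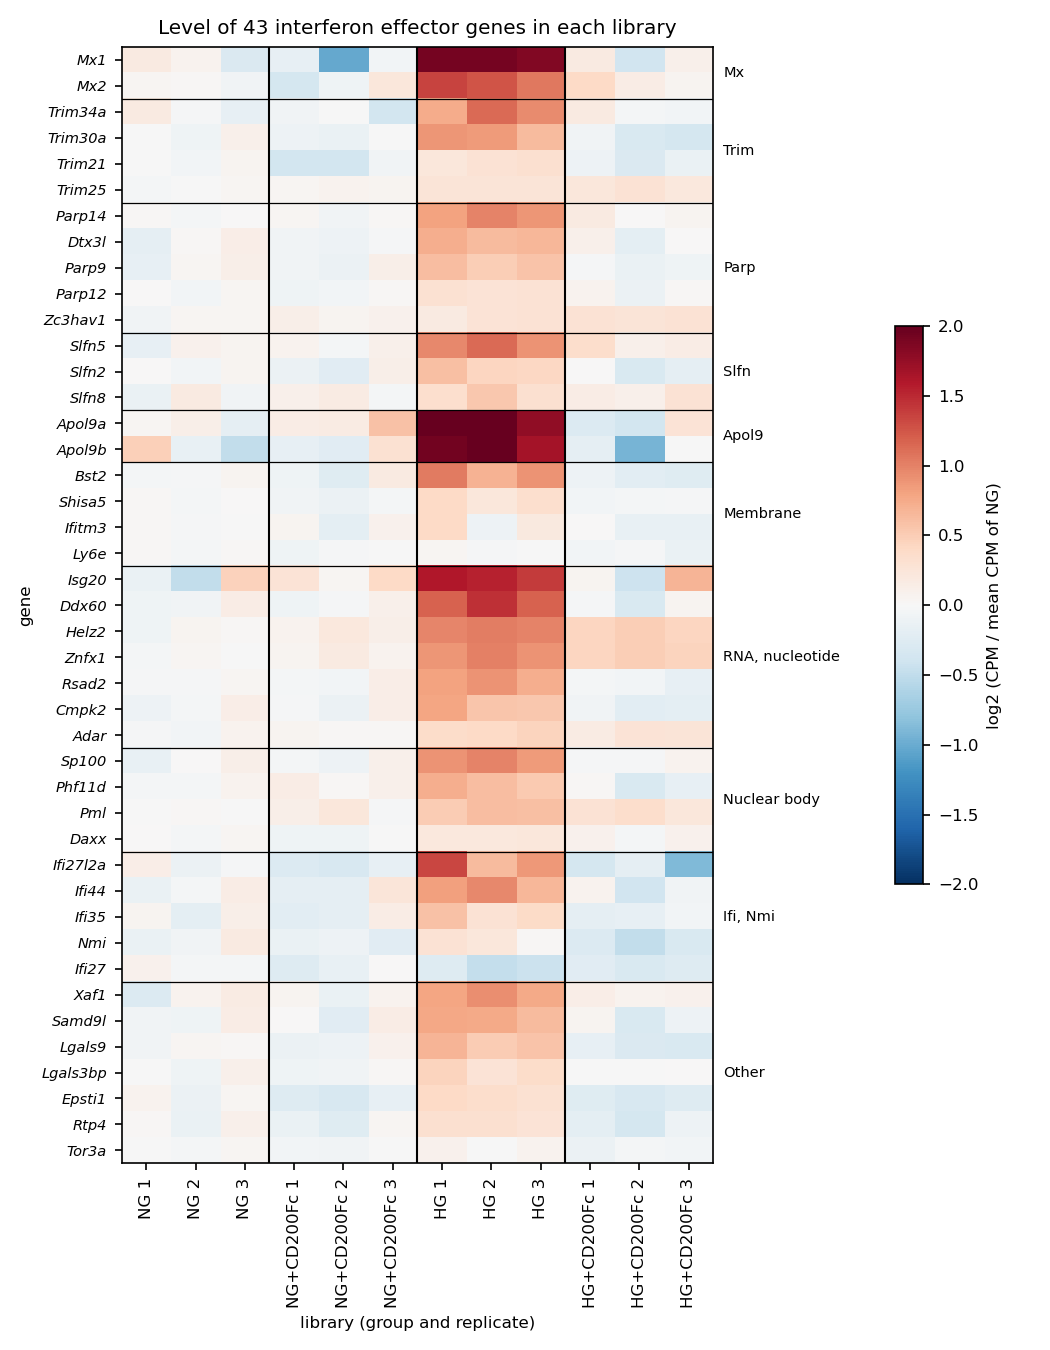
The level of the 43 genes (rows, by role) in each of the 12 libraries (columns), as log2 of CPM over the mean CPM of the gene in NG, with colours ending at 2 in either direction. The 3 HG columns are red for most genes and the HG+CD200Fc columns are close to the NG columns for most. Rows such as *Helz2*, *Znfx1* and *Trim25* lie above NG in HG+CD200Fc, and rows such as *Ifi27l2a*, *Nmi* and *Epsti1* lie below it. Between HG+CD200Fc and NG 28 of the 43 differences were negative and 15 positive.

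The response element that binds STAT and IRF proteins can be read in the promoters of part of these genes. RefSeq promoter windows (GRCm38.p6, from 250 bases before to 50 after an annotated start) matched 34 of the 43 members with 50 windows. *Ifi27*, *Ifi27l2a*, *Ly6e*, *Mx1*, *Mx2*, *Parp14*, *Parp9*, *Rtp4* and *Tor3a* had no entry. The core searched was GAAA, then 2 bases of any kind, then GAAA, on both strands, and overlapping matches were both kept. It was present in at least 1 window of 13 of the 34 genes (38.2%), against 3.99% of 27025 genes with a window and 3.83% of the 11070 that were also tested. The STAT dimer core TTCNNNGAA, where N is any base, was in 6 of the 34 (17.6%, against 9.55% of all genes), and CCAAT, searched as a general promoter element, was in 12 of the 34 (35.3%, against 41.1%).

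The windows of some of these genes are printed next, each on the strand of its gene, with the bases of the core or its reverse complement in capitals. Most were chosen because they hold the core, so they do not show its share, which was 13 of the 34 genes. *Helz2* and *Znfx1*, with the smallest adjusted p between HG and NG and windows without the core, are not printed. *Apol9a* and *Apol9b* are shown as a pair that shares sequence and has the largest differences between HG+CD200Fc and HG, *Ddx60*, *Slfn5*, *Trim34a*, *Bst2* and *Rsad2* as genes with the core that rose, *Trim21* as a gene with the core that was not called in HG against NG, and *Isg20* as a gene at least 2-fold higher with no core in its windows.
Apol9a (chr15:77411031-77411330, minus strand): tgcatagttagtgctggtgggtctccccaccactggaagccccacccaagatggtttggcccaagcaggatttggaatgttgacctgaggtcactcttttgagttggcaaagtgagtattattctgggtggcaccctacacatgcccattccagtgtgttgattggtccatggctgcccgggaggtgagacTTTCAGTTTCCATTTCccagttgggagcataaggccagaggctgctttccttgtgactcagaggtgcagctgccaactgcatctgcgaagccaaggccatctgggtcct
Apol9b (chr15:77728822-77729121, plus strand): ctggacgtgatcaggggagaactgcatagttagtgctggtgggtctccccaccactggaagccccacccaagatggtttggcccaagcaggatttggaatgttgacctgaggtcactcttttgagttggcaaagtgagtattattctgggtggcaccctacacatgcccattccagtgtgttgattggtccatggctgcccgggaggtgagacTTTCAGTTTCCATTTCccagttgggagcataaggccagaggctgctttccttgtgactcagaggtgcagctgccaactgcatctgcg
Ddx60 (chr8:61927837-61928136, plus strand): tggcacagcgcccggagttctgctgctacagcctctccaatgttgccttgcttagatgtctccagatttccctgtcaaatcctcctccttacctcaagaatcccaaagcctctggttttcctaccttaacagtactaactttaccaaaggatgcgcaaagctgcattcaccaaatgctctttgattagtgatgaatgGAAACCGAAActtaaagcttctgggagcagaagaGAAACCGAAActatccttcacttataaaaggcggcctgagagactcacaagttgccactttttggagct
Slfn5 (chr11:82951852-82952151, plus strand): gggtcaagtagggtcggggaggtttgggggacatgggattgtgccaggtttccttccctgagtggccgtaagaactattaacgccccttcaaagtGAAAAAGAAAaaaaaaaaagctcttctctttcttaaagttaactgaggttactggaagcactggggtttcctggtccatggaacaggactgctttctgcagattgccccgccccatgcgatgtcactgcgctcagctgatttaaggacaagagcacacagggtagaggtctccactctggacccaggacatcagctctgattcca
Trim34a (chr7:104244207-104244506, plus strand): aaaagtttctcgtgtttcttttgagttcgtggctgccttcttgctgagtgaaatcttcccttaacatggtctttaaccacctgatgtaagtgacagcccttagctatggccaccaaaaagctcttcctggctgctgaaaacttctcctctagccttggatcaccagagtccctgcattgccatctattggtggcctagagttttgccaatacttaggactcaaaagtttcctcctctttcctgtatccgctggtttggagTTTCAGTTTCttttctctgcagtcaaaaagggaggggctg
Bst2 (chr8:71537423-71537722, minus strand): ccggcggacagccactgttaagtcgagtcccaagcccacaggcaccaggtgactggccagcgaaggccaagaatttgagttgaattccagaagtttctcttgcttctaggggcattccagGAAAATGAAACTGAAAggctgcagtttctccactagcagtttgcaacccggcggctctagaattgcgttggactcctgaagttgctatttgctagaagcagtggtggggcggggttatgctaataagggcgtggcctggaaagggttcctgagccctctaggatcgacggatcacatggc
Rsad2 (chr12:26456403-26456702, minus strand): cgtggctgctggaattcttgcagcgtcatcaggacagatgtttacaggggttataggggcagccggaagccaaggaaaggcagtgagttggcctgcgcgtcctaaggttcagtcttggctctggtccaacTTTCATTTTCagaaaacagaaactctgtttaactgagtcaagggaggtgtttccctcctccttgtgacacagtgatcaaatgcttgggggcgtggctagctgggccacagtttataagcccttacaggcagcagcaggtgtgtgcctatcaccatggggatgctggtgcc
Trim21 (chr7:102565433-102565732, minus strand): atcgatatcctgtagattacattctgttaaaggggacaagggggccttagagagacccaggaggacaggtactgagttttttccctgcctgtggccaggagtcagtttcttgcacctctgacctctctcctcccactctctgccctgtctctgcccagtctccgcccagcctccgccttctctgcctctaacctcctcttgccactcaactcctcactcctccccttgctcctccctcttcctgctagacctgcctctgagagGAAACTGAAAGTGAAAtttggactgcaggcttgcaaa
Isg20 (chr7:78913174-78913473, plus strand): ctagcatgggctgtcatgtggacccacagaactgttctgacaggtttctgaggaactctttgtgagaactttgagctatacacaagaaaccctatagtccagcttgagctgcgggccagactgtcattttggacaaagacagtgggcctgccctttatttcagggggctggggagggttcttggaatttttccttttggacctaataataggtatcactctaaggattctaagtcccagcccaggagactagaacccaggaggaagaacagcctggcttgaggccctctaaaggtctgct

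In *Apol9a* and *Apol9b* the capitals hold 2 overlapping copies of the reverse complement, as *Bst2* and *Trim21* hold 2 overlapping copies on the gene strand. In *Ddx60* the 2 copies are apart, at -53 and -19 from the start, counted to the first base of each match, with 0 at the first transcribed base. The first match in *Trim21* begins at 13 and that in *Trim34a* at 10, both past the start. Of the other genes with the core, *Ifitm3*, *Lgals9*, *Shisa5*, *Slfn8* and *Trim30a*, *Ifitm3* was called in no comparison. The 13 genes with the core had a median difference between HG and NG of 0.82, and the 21 with windows but without it 0.57. At least 2-fold higher were 3 of the 13 (*Apol9a*, *Apol9b* and *Ddx60*) and 2 of the 21 (*Isg20* and *Helz2*). *Apol9a* and *Apol9b* share the stretch with the core and are not separate observations. *Helz2*, without the core, was just past the cutoff at 1.0002, and *Slfn5*, with it, just short at 0.995. Members with no window, among them *Mx1* and *Mx2*, are in neither count. The split depends on the core chosen. The looser core AANNGAAA was in 29 of the 34 genes (85.3%, against 26.7% of all genes), so the 21 do not all lack a looser match. These are letters in a window and say nothing of which protein was bound.

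**Figure D2:**
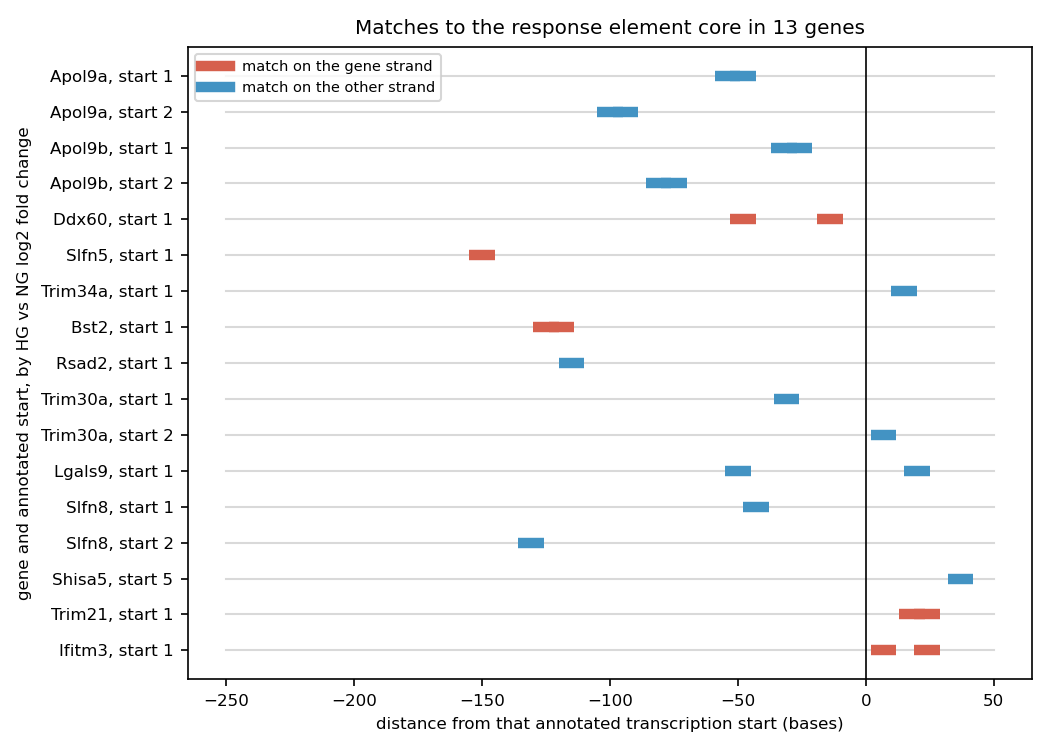
Matches to the response element core (GAAA, 2 bases, GAAA) in the RefSeq windows of the 13 genes that hold it, one row for each annotated start with a match, by distance in bases from that start; red is a match on the gene strand and blue one on the other strand. The 2 starts of *Apol9a*, *Apol9b* and *Slfn8* read the same stretch of genome from different zero points.

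Mx proteins are dynamin-like GTPases that form rings around viral nucleoproteins, and both genes rose. *Mx1* (chr16:97447035-97462907, minus strand) stood at 1.36, 1.25 and 0.975 CPM in NG (1.07, 0.588 and 1.15 with CD200Fc) and 4.48, 4.51 and 4.29 CPM in HG (1.35, 0.918 and 1.28 with CD200Fc). The HG libraries were all above the other 9, which overlapped one another. The difference between HG and NG was 1.89 ± 0.27 (adjusted p = 8.42e-06), a 3.70-fold rise, and that between HG+CD200Fc and HG was -1.89 ± 0.27 (adjusted p = 1.03e-05). *Mx1* was the scarcest member per length (0.511 CPM per kb of exon over all libraries, 609 counts in all), and its interaction of -1.56 ± 0.41 (adjusted p = 0.016) was lost without replicate 3 of NG or of NG+CD200Fc. *Mx2*, its cytoplasmic relative on the opposite strand 72400 bases away (chr16:97535308-97560900, plus strand), stood at 5.17, 5.16 and 4.83 CPM in NG (3.97, 4.79 and 5.93 with CD200Fc) and 12.97, 12.1 and 10.5 CPM in HG (6.65, 5.60 and 5.22 with CD200Fc). HG was again above every other library, and the HG+CD200Fc libraries lay above those of NG but overlapped NG+CD200Fc. *Mx2* differed by 1.23 ± 0.16 (adjusted p = 1.43e-06) between HG and NG and by -1.02 ± 0.15 (adjusted p = 2.05e-05) between HG+CD200Fc and HG.

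Trim proteins are ubiquitin ligases, and the 4 members did not follow a single course. *Trim34a*, which stood at 3.81, 3.32 and 3.01 CPM in NG (3.21, 3.37 and 2.61 with CD200Fc) and 5.68, 7.39 and 6.50 CPM in HG (3.81, 3.28 and 3.25 with CD200Fc), had HG libraries above all others. It rose by 0.95 ± 0.18 (adjusted p = 0.000366) in HG and was lower (-0.91 ± 0.18, adjusted p = 0.000673) with CD200Fc, while its interaction of -0.77 ± 0.27 (adjusted p = 0.0841) did not pass. Of its 100-base stretches 39% also occur in *Trim34b* or the overlapping *Gm47248*, so its counts are uncertain. *Trim30a* (chr7:104409025-104465193, minus strand), a restrainer of Toll-like receptor signalling, stood at 64.2, 60.7 and 69.2 CPM in NG (60.4, 59.3 and 64.2 with CD200Fc) and 119, 117 and 100.3 CPM in HG (61.6, 52.5 and 50.8 with CD200Fc). It was higher in HG by 0.79 ± 0.074 (adjusted p = 1.26e-08) and lower with CD200Fc in HG (-1.02 ± 0.075, adjusted p = 2.72e-10), and HG+CD200Fc ended below NG (-0.23 ± 0.076, adjusted p = 0.0296). The last of these calls was lost with upper quartile scaling and without NG replicate 1 or 3 or HG+CD200Fc replicate 2 or 3.

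*Trim25* (chr11:88999376-89020293, plus strand), the ligase that helps activate the RNA sensor RIG-I, followed another course, at 431, 437 and 454 CPM in NG (453, 462 and 460.1 with CD200Fc) and 527, 525 and 529 CPM in HG (517, 539 and 510.4 with CD200Fc). Both high glucose groups lay above both normal glucose groups and overlapped each other. *Trim25* was higher in HG than in NG by 0.26 ± 0.047 (adjusted p = 0.0002) and higher in HG+CD200Fc than in NG+CD200Fc by 0.19 ± 0.047 (adjusted p = 0.0149), and its difference between HG+CD200Fc and HG was -0.013 ± 0.047 (adjusted p = 0.902). *Trim21* (chr7:102557921-102565486, minus strand), a cytosolic receptor for antibody that tags what it binds for degradation, stood at 12.5, 12.1 and 13.1 CPM in NG (9.72, 9.81 and 12.02 with CD200Fc) and 14.6, 15.3 and 15.7 CPM in HG (11.8, 10.3 and 11.5 with CD200Fc). All HG libraries were above all NG libraries, and NG lay above both CD200Fc groups. The difference between HG and NG was 0.28 ± 0.11 (adjusted p = 0.0704), which did not pass. That difference was called with upper quartile scaling, with a stricter filter on low counts and with limma voom. *Trim21* was lower in HG+CD200Fc than in HG (-0.44 ± 0.11, adjusted p = 0.00545).

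The Parp group holds enzymes that attach ADP-ribose to proteins, and all 5 members were higher in HG than in NG. *Parp14* (chr16:35832874-35871544, minus strand), which transfers single ADP-ribose units, stood at 95.4, 92.2 and 94.96 CPM in NG (96.4, 89.8 and 95.5 with CD200Fc) and 164, 188 and 173 CPM in HG (107, 94.9 and 97.3 with CD200Fc). The HG libraries were far above the other 9, which overlapped. It rose by 0.89 ± 0.061 (adjusted p = 2.41e-11), a 1.86-fold difference, fell by 0.81 ± 0.061 (adjusted p = 2.73e-10) with CD200Fc in HG, and its interaction of -0.81 ± 0.086 (adjusted p = 4.27e-07) had the smallest p of the 43. *Zc3hav1* (chr6:38305286-38354603, minus strand), the antiviral protein ZAP, which binds CG-rich RNA and has a Parp domain without enzyme activity, stood at 209, 226 and 225 CPM in NG (238, 229.5 and 232 with CD200Fc) and 249, 265 and 269 CPM in HG (269.6, 262 and 269 with CD200Fc). Its 2 high glucose groups overlapped each other and lay above both normal glucose groups. *Zc3hav1* was higher in HG by 0.25 ± 0.052 (adjusted p = 0.000793), and with CD200Fc in HG it differed by 0.033 ± 0.052 (adjusted p = 0.742).

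*Parp9* and the ubiquitin ligase *Dtx3l* work as a complex and lie on opposite strands of chromosome 16 with overlapping ends. *Parp9* averaged 39.02 ± 3.69 CPM in NG (mean ± SD of 3 libraries) and 57.6 ± 2.58 CPM in HG, with 37.00 ± 1.39 in HG+CD200Fc. *Dtx3l* averaged 35.98 ± 3.83, 57.3 ± 1.90 and 35.5 ± 3.65 in the same groups. The 2 rose by 0.56 ± 0.077 (adjusted p = 4.51e-06) and 0.67 ± 0.08 (adjusted p = 5.91e-07), and the sources used state no strand setting, so reads in the shared exon bases (9.4% of *Parp9* and 8% of *Dtx3l*) cannot be assigned. *Parp12* rose by 0.29 ± 0.057 (adjusted p = 0.000443) and fell by 0.29 ± 0.057 (adjusted p = 0.00043) with CD200Fc in HG, and its interaction of -0.25 ± 0.081 (adjusted p = 0.0536) did not pass, though it was called in 5 of 19 alternative settings.

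The Schlafen genes *Slfn5*, *Slfn8* and *Slfn2* lie within 1 cluster on chromosome 11, and all 3 were higher in HG. *Slfn5* (chr11:82951349-82964840, plus strand), a nuclear member of the family, stood at 80.9, 96.3 and 94.2 CPM in NG (94.6, 88.2 and 97.5 with CD200Fc) and 175, 198 and 168 CPM in HG (115, 96.6 and 99.8 with CD200Fc). HG was above every other library, and HG+CD200Fc was above NG without overlap, by 0.20 ± 0.075 (adjusted p = 0.0643), which did not pass. Between HG and NG *Slfn5* differed by 1.00 ± 0.075 (adjusted p = 6.3e-10), and between HG+CD200Fc and HG by -0.80 ± 0.075 (adjusted p = 3.55e-08). Of its exon bases 8.8% also belong to a gene on the other strand. *Slfn2* (chr11:83065112-83070678, plus strand), known for keeping T cells and monocytes quiescent, stood at 111, 106 and 115 CPM in NG (102, 94.8 and 120.5 with CD200Fc) and 168, 149.9 and 148 CPM in HG (111, 89.8 and 97.7 with CD200Fc). Here only HG was set apart, by 0.49 ± 0.082 (adjusted p = 0.000182) from NG and by -0.64 ± 0.083 (adjusted p = 1e-05) with CD200Fc. *Slfn8* averaged 13.4 ± 1.56 CPM in NG and 17.7 ± 1.48 in HG and rose by 0.40 ± 0.11 (adjusted p = 0.00749), a call that was lost without NG replicate 1 or 3 or HG replicate 2. It was 15.2 ± 1.10 CPM in HG+CD200Fc, and its difference from HG of -0.22 ± 0.11 (adjusted p = 0.181) did not pass.

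The apolipoprotein L genes *Apol9a* and *Apol9b* had the largest differences of all members between HG+CD200Fc and HG, and between HG and NG *Apol9a* had the largest, followed by *Mx1* and *Apol9b*. *Apol9a* (chr15:77403789-77411135, minus strand) stood at 2.88, 3.05 and 2.48 CPM in NG (3.09, 3.14 and 4.19 with CD200Fc) and 11.8, 11.7 and 9.61 CPM in HG (2.32, 2.17 and 3.39 with CD200Fc). *Apol9b* (chr15:77729039-77736382, plus strand), 317903 bases away, stood at 2.29, 1.49 and 1.18 CPM in NG (1.47, 1.41 and 2.05 with CD200Fc) and 6.30, 6.74 and 5.24 CPM in HG (1.46, 0.869 and 1.65 with CD200Fc). In both genes the HG libraries were above the other 9, and HG+CD200Fc overlapped NG. *Apol9a* was 3.93-fold higher in HG (1.98 ± 0.19, adjusted p = 1.38e-08) and lower with CD200Fc in HG (-2.07 ± 0.19, adjusted p = 1.09e-08). *Apol9b* was 3.70-fold higher in HG (1.89 ± 0.26, adjusted p = 4.3e-06) and lower with CD200Fc (-2.19 ± 0.27, adjusted p = 8.99e-07). The pair is not 2 separate observations: 36.7% of the 100-base stretches of *Apol9b* occur in *Apol9a*, the sources used do not say how reads that fit both were counted, and the printed promoter windows share the stretch with the core.

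Of the 4 membrane proteins 2 were higher in HG. *Bst2* (chr8:71534255-71537456, minus strand), also called tetherin, which holds budding virus particles to the cell surface, stood at 155, 157 and 165 CPM in NG (151, 135 and 181 with CD200Fc) and 328, 258 and 296 CPM in HG (149, 137 and 134 with CD200Fc). HG was above all others, and the HG+CD200Fc libraries were all below those of NG. *Bst2* rose by 0.89 ± 0.098 (adjusted p = 1.36e-05), 1.85-fold, and was lower with CD200Fc in HG (-1.07 ± 0.098, adjusted p = 2.73e-06), while HG+CD200Fc against NG gave -0.19 ± 0.098 (adjusted p = 0.213). *Shisa5* rose by 0.32 ± 0.053 (adjusted p = 6.27e-05) and fell by 0.36 ± 0.054 (adjusted p = 1.73e-05). *Ly6e* (chr15:74955051-74959905, plus strand), a lipid-anchored surface protein that restricts coronavirus entry, had the highest level per length of the 43 and stood at 2310.4, 2199.7 and 2299 CPM in NG (2149.7, 2242 and 2266 with CD200Fc) and 2327, 2221 and 2249 CPM in HG (2190.1, 2226 and 2064 with CD200Fc). The 4 groups overlapped, and HG against NG gave -0.0025 ± 0.048 (adjusted p = 0.979). *Ifitm3*, which blocks fusion of viruses with endosomes, averaged 10.4 ± 0.161 CPM in NG and 11.8 ± 1.99 CPM in HG, and its difference of 0.18 ± 0.13 (adjusted p = 0.334) did not pass.

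**Figure D3:**
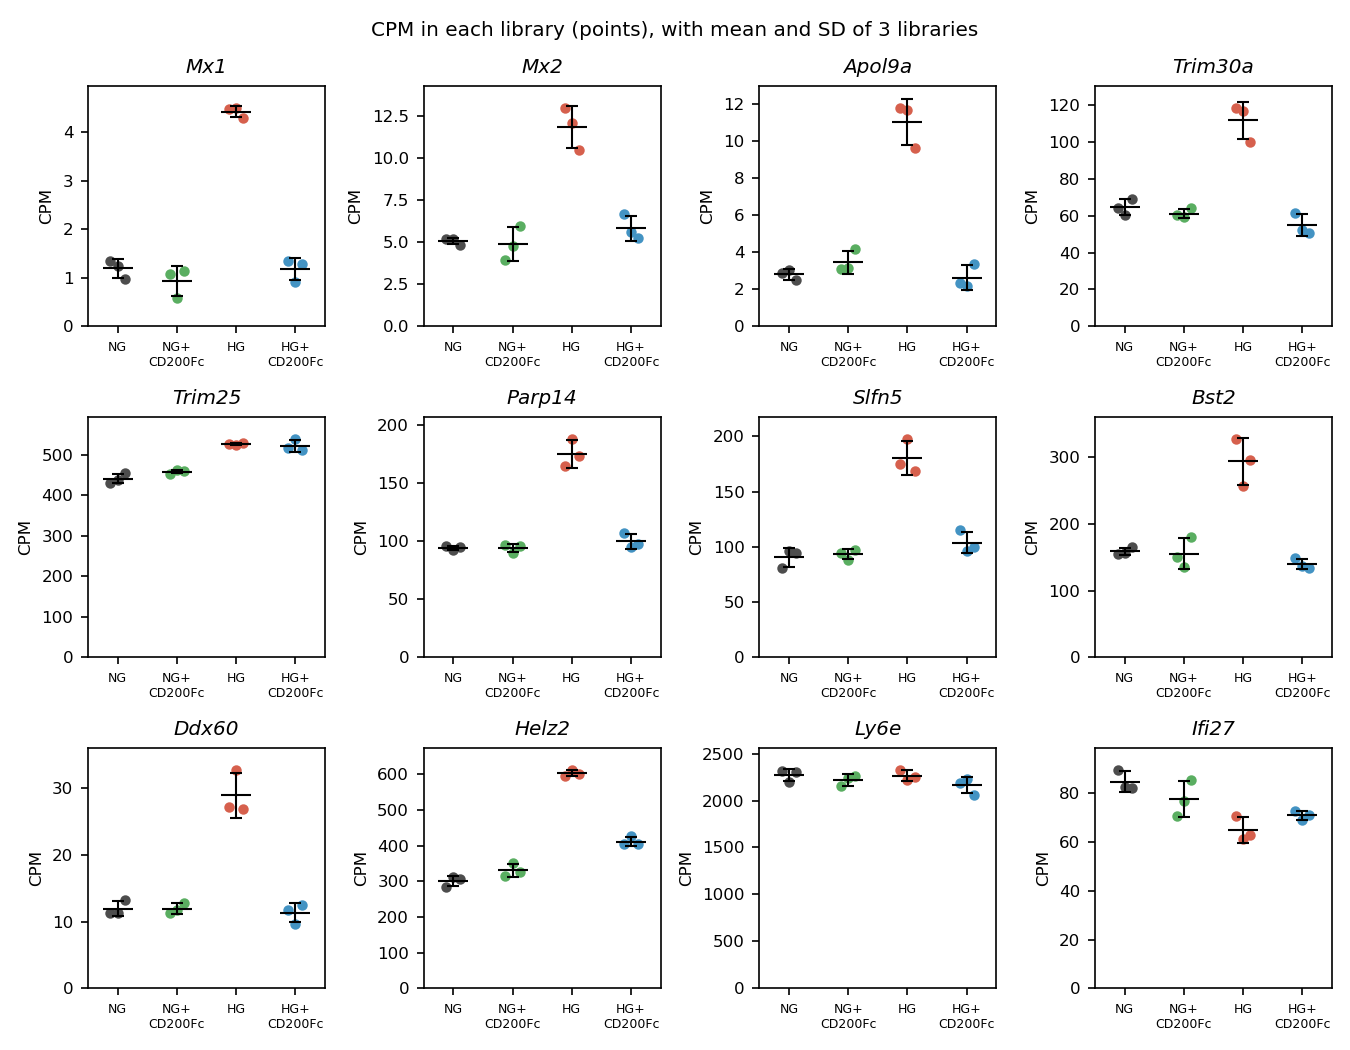
CPM of 12 of the 43 genes in each library (points) with the mean and SD of 3 libraries (bars), by group, on linear axes from 0. In *Mx1*, *Mx2*, *Apol9a*, *Parp14*, *Slfn5*, *Bst2* and *Ddx60* only the HG points stand high, in *Trim25* both high glucose groups are raised, *Helz2* is intermediate in HG+CD200Fc, *Ly6e* is level and *Ifi27* is lower in HG than in NG.

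All 7 genes of RNA and nucleotide metabolism were higher in HG and lower in HG+CD200Fc than in HG. *Isg20* (chr7:78913424-78920396, plus strand), an exonuclease for RNA, stood at 1.36, 1.06 and 2.03 CPM in NG (1.78, 1.53 and 1.96 with CD200Fc) and 4.52, 4.32 and 3.90 CPM in HG (1.53, 1.11 and 2.38 with CD200Fc). HG was above the other 9 libraries, which overlapped. It rose by 1.52 ± 0.27 (adjusted p = 0.000156), 2.86-fold, and was lower with CD200Fc in HG (-1.34 ± 0.27, adjusted p = 0.000687). *Ddx60* (chr8:61928087-62038244, plus strand), a helicase that aids RNA sensing, stood at 11.3, 11.3 and 13.2 CPM in NG (11.2, 11.8 and 12.9 with CD200Fc) and 27.1, 32.8 and 26.9 CPM in HG (11.8, 9.71 and 12.5 with CD200Fc). HG was above the other 9 libraries, which overlapped. It rose by 1.28 ± 0.11 (adjusted p = 3.09e-09) and its interaction was -1.36 ± 0.16 (adjusted p = 2.49e-06). *Rsad2* (viperin, which turns CTP into a chain terminator of viral RNA) and *Cmpk2* (a kinase that supplies the nucleotide) start 12751 bases apart on opposite strands of chromosome 12. *Rsad2* rose by 0.82 ± 0.076 (adjusted p = 9.02e-09) and *Cmpk2* by 0.63 ± 0.077 (adjusted p = 8.51e-07), and with CD200Fc in HG they fell by 0.90 ± 0.077 (adjusted p = 2.35e-09) and 0.79 ± 0.078 (adjusted p = 3.58e-08).

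The large helicases *Helz2* and *Znfx1* kept part of their rise with CD200Fc. *Znfx1* (chr2:167035793-167063015, minus strand), a sensor of double-stranded RNA at mitochondria, stood at 302, 317 and 308 CPM in NG (321, 348 and 324 with CD200Fc) and 573, 619 and 573 CPM in HG (414, 435 and 423 with CD200Fc). The groups did not overlap: NG was lowest, then NG+CD200Fc, then HG+CD200Fc, and HG was highest. *Helz2* (chr2:181227615-181242027, minus strand), a transcriptional coactivator with helicase domains, stood at 285, 312 and 308 CPM in NG (315, 350.2 and 327 with CD200Fc) and 596, 613 and 601 CPM in HG (404, 426 and 405 with CD200Fc), in the same order and also without overlap. *Helz2* differed by 1.00 ± 0.053 (adjusted p = 2.44e-13) between HG and NG, by -0.55 ± 0.053 (adjusted p = 2.05e-08) between HG+CD200Fc and HG, and by 0.45 ± 0.053 (adjusted p = 1.31e-05) between HG+CD200Fc and NG. The same 3 differences for *Znfx1* were 0.93 ± 0.052 (adjusted p = 4.96e-13), -0.47 ± 0.052 (adjusted p = 1.65e-07) and 0.46 ± 0.052 (adjusted p = 1.04e-05). *Adar*, the editor that turns adenosine into inosine in double-stranded RNA, averaged 108 ± 5.27 CPM in NG and 143 ± 3.96 CPM in HG, with 127 ± 4.96 in HG+CD200Fc, and its lower level with CD200Fc (-0.17 ± 0.055, adjusted p = 0.0329) was called in 9 of 20 alternative settings. Of its exon bases 16.8% also belong to *Chrnb2* on the other strand.

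All 4 genes listed under nuclear bodies were higher in HG, against 11.7% of all genes. *Sp100* (chr1:85649988-85709998, plus strand), a chromatin-binding part of these bodies, stood at 21.9, 24.3 and 26.2 CPM in NG (23.5, 22.4 and 25.9 with CD200Fc) and 45.1, 48.2 and 43.8 CPM in HG (23.8, 23.7 and 25.3 with CD200Fc). Only the HG libraries stood apart. *Sp100* rose by 0.92 ± 0.084 (adjusted p = 6.03e-09) and fell by 0.91 ± 0.084 (adjusted p = 1.09e-08) with CD200Fc in HG. *Pml* (chr9:58218076-58249786, minus strand), the scaffold of the bodies, stood at 72.3, 73.5 and 72.3 CPM in NG (79.2, 85.2 and 71.1 with CD200Fc) and 104, 111 and 109.8 CPM in HG (88.99, 92.3 and 84.97 with CD200Fc). HG was highest, HG+CD200Fc was above NG without overlap, and NG+CD200Fc overlapped both NG and HG+CD200Fc. *Pml* rose by 0.57 ± 0.063 (adjusted p = 1.43e-07) in HG, was lower with CD200Fc (-0.28 ± 0.062, adjusted p = 0.00152), and remained above NG by 0.29 ± 0.063 (adjusted p = 0.00185). *Daxx*, a histone chaperone, rose by 0.21 ± 0.068 (adjusted p = 0.0204), which was called in 14 of 20 alternative settings. *Phf11d*, listed here though no source used places its product in these bodies, rose by 0.62 ± 0.085 (adjusted p = 4.51e-06).

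The Ifi genes did not move as a block. *Ifi27l2a* (chr12:103442167-103443680, minus strand) stood at 12.2, 10.2 and 10.97 CPM in NG (9.20, 8.90 and 9.88 with CD200Fc) and 28.2, 17.3 and 20.2 CPM in HG (8.75, 9.80 and 6.004 with CD200Fc). The HG libraries were above all others but spread widely, and NG lay above both CD200Fc groups. It rose by 0.98 ± 0.16 (adjusted p = 0.000151) and was lower with CD200Fc in HG (-1.42 ± 0.17, adjusted p = 3.57e-06). *Ifi27* (chr12:103434211-103440239, plus strand), a mitochondrial relative 1927 bases from *Ifi27l2a*, went the other way, at 89.7, 82.5 and 82.4 CPM in NG (70.9, 76.9 and 85.4 with CD200Fc) and 70.9, 61.1 and 63.1 CPM in HG (72.8, 68.97 and 71.1 with CD200Fc). NG was above both high glucose groups, and NG+CD200Fc overlapped all 3 other groups. It was lower in HG than in NG (-0.38 ± 0.069, adjusted p = 0.000158), and its difference between HG+CD200Fc and HG, 0.13 ± 0.069 (adjusted p = 0.245), did not pass. *Ifi44* rose by 0.82 ± 0.15 (adjusted p = 0.00255) and *Ifi35* by 0.42 ± 0.10 (adjusted p = 0.00276). Of the exon bases of *Ifi35* 16.8% also belong to a gene on the other strand. *Nmi*, the binding partner of *Ifi35*, gave 0.19 ± 0.14 (adjusted p = 0.352) between HG and NG and was lower in HG+CD200Fc than in HG (-0.54 ± 0.14, adjusted p = 0.00699).

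Of the 7 other effectors 6 were higher in HG and the same number lower in HG+CD200Fc than in HG. *Xaf1* (chr11:72301629-72313733, plus strand), which counters an inhibitor of cell death, stood at 15.6, 19.99 and 21.2 CPM in NG (19.6, 17.3 and 19.9 with CD200Fc) and 32.7, 36.1 and 32.2 CPM in HG (20.8, 19.9 and 20.1 with CD200Fc). HG was above the other 9 libraries, which overlapped, and the rise was 0.83 ± 0.099 (adjusted p = 5.98e-07) and the difference with CD200Fc in HG -0.73 ± 0.099 (adjusted p = 4.45e-06). *Lgals3bp* (chr11:118392751-118402092, minus strand), a secreted glycoprotein that binds galectins, stood at 511, 484 and 553 CPM in NG (488, 492 and 525 with CD200Fc) and 705, 622 and 664 CPM in HG (514, 516 and 516 with CD200Fc). It too was set apart in HG only, by 0.36 ± 0.056 (adjusted p = 2.2e-05) from NG and -0.36 ± 0.056 (adjusted p = 2.31e-05) with CD200Fc. *Lgals9* (chr11:78962974-78984946, minus strand), galectin 9, stood at 108, 118 and 116 CPM in NG (105, 106 and 120.2 with CD200Fc) and 181, 161 and 168 CPM in HG (102, 93.6 and 92.1 with CD200Fc). HG was highest and HG+CD200Fc was below every library of the other groups. *Lgals9* rose by 0.58 ± 0.064 (adjusted p = 1.42e-07), was lower with CD200Fc in HG (-0.83 ± 0.064, adjusted p = 5e-10), and was lower in HG+CD200Fc than in NG (-0.25 ± 0.064, adjusted p = 0.00699).

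*Epsti1* (chr14:77904239-78002657, plus strand), a gene tied to macrophage activation, stood at 29.5, 25.9 and 28.7 CPM in NG (23.4, 22.4 and 24.9 with CD200Fc) and 36.7, 35.8 and 34.7 CPM in HG (23.7, 22.3 and 23.5 with CD200Fc). HG was highest, NG was between, and both CD200Fc groups were lower and overlapped. It rose by 0.35 ± 0.079 (adjusted p = 0.00161), and HG+CD200Fc was lower than HG (-0.63 ± 0.081, adjusted p = 2.38e-06). *Samd9l*, an inhibitor of translation, rose by 0.72 ± 0.094 (adjusted p = 3.32e-06) and *Rtp4*, a chaperone of receptors, by 0.31 ± 0.077 (adjusted p = 0.00388). Of the exon bases of *Rtp4* 13.9% also belong to another gene on the same strand. *Tor3a*, a torsin of the endoplasmic reticulum, averaged 286 ± 6.32 CPM in NG and 296 ± 11.1 CPM in HG, and its difference of 0.048 ± 0.05 (adjusted p = 0.526) did not pass.

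**Figure D4:**
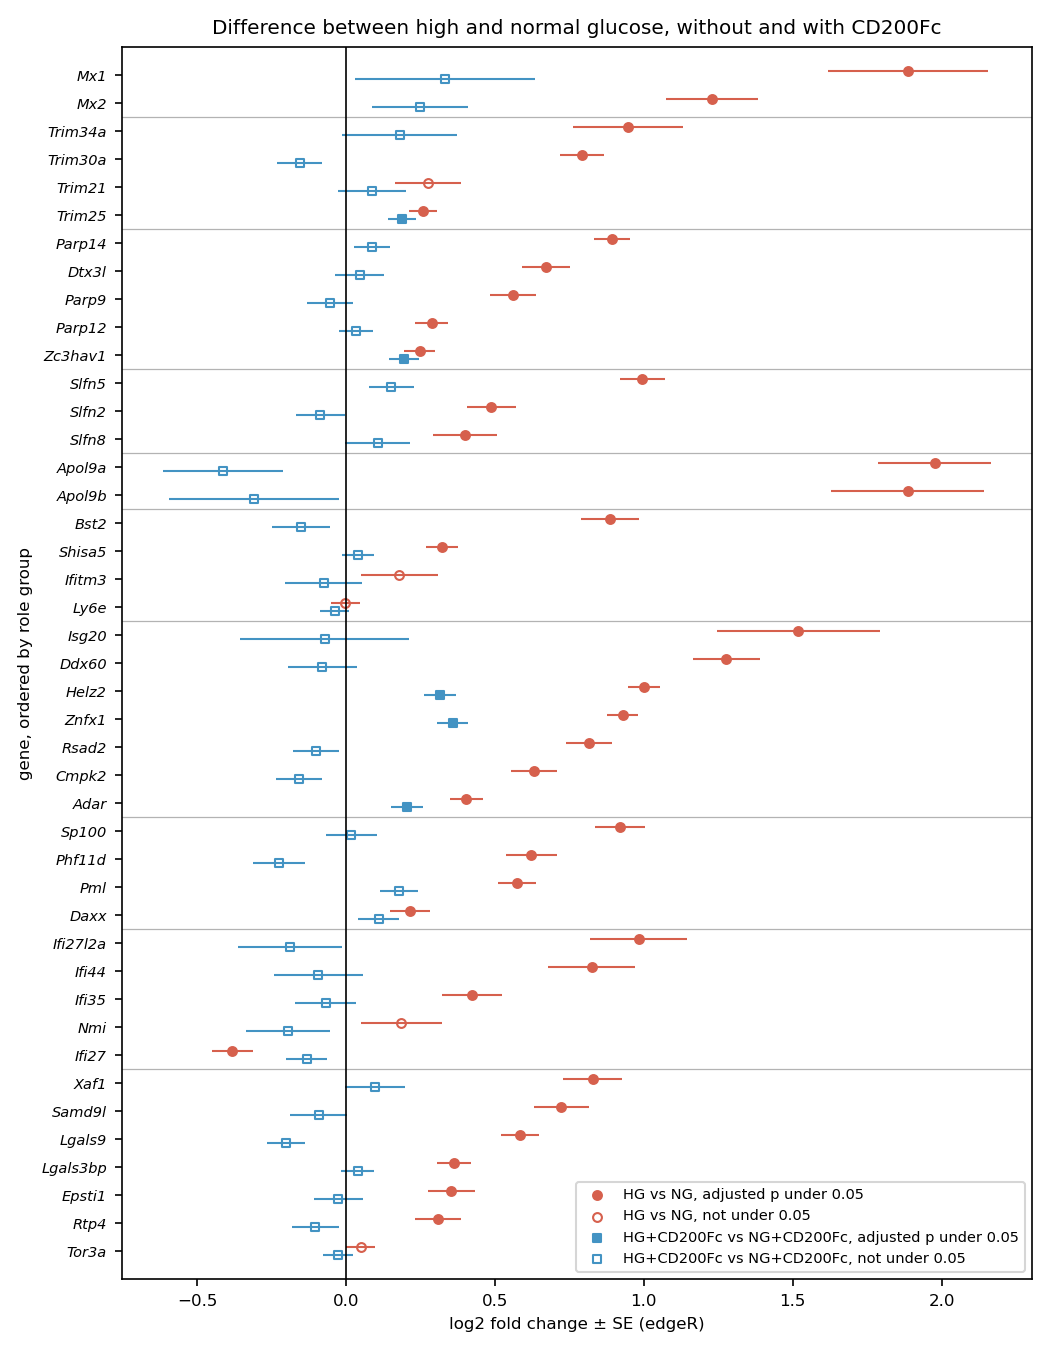
Log2 fold change ± SE of each of the 43 genes between high and normal glucose, without CD200Fc (red circles) and with it (blue squares), by role; filled symbols passed at an adjusted p under 0.05. Red circles are filled for 38 genes and blue squares for 5, *Trim25*, *Zc3hav1*, *Helz2*, *Znfx1* and *Adar*.

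With CD200Fc in both media, high glucose was accompanied by few calls. Between HG+CD200Fc and NG+CD200Fc 5 of the 43 were higher, against 4.65% of all genes, and 0 were lower, against 3.65%, and the median was -0.027. The largest of the 5 were *Znfx1* at 0.36 ± 0.052 (adjusted p = 0.00087) and *Helz2* at 0.32 ± 0.053 (adjusted p = 0.00147), and these 2 were called in all 20 alternative settings. The calls of *Trim25*, *Zc3hav1* and *Adar* depended on single libraries: 2 of the 5 genes were called without NG+CD200Fc replicate 1 or 3 or HG+CD200Fc replicate 2, and 3 without HG+CD200Fc replicate 3.

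Between HG+CD200Fc and NG, groups that differ in both glucose and CD200Fc, 6 genes were higher, against 9.56% of all genes, and 4 were lower, against 10.8%. The 6 were *Adar*, *Helz2*, *Pml*, *Trim25*, *Zc3hav1* and *Znfx1*, by 0.24 ± 0.055 (adjusted p = 0.00326) for *Adar* up to 0.46 ± 0.052 (adjusted p = 1.04e-05) for *Znfx1*. The 4 were *Epsti1*, *Ifi27*, *Lgals9* and *Trim30a*. *Epsti1* differed by -0.27 ± 0.082 (adjusted p = 0.0184) and *Ifi27* by -0.26 ± 0.069 (adjusted p = 0.00877). The count of lower genes was 1 without NG replicate 1, and 2 without NG replicate 3 or HG+CD200Fc replicate 2. A further 33 of the 43 genes were not called.

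In normal glucose *Epsti1*, *Helz2* and *Trim21* were the 3 members with an unadjusted p under 0.05 for CD200Fc, against 1147 of the 19182 genes. *Epsti1* differed by -0.25 ± 0.081 (adjusted p = 0.816), *Trim21* by -0.25 ± 0.11 (adjusted p = 0.816) and *Helz2* by 0.13 ± 0.053 (adjusted p = 0.816). DESeq2 and limma voom also called 0 of the 43. The differences ran from -0.34 (*Mx1*) to 0.32 (*Apol9a*), both genes of few counts.

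**Figure D5:**
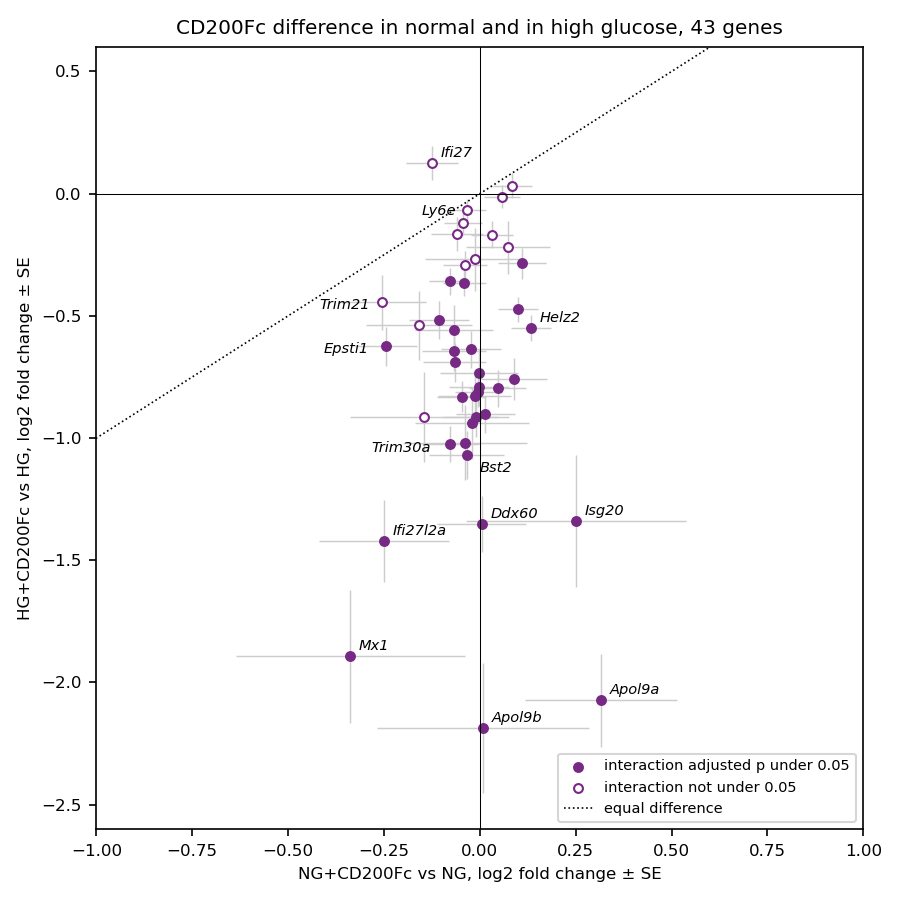
Log2 fold change ± SE with CD200Fc in high glucose (vertical) against that in normal glucose (horizontal) for the 43 genes, from 2 comparisons that share no library; filled points passed the test of the difference between the 2 (interaction), and the dotted line marks equal differences. The 30 filled points lie below the dotted line, between -0.34 and 0.32 on the horizontal axis and down to -2.19 on the vertical axis.

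The test of the interaction was passed by 30 genes, and by group these were 2 of 2 Mx, 1 of 4 Trim (*Trim30a*), 3 of 5 Parp, 2 of 3 Slfn, 2 of 2 Apol9, 2 of 4 membrane, 6 of 7 RNA and nucleotide, 3 of 4 nuclear body, 3 of 5 Ifi and 6 of 7 other genes. The largest were *Apol9a* at -2.39 ± 0.28 (adjusted p = 1.67e-06), *Apol9b* at -2.20 ± 0.38 (adjusted p = 0.000437) and *Isg20* at -1.59 ± 0.39 (adjusted p = 0.0113). *Adar*, *Daxx*, *Parp12*, *Slfn8*, *Trim25*, *Trim34a* and *Zc3hav1* were higher in HG with an interaction that did not pass. For *Trim25* the interaction was -0.07 ± 0.067 (adjusted p = 0.637) and for *Zc3hav1* -0.052 ± 0.073 (adjusted p = 0.77).

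Levels per length, with exons joined over all transcripts, spanned about 3 orders of magnitude. *Ly6e* had 589 CPM per kb over the 12 libraries, followed by *Bst2* at 207, *Lgals3bp* at 193 and *Trim25* at 84.6. At the lower end were *Apol9b* at 1.47, *Isg20* at 1.23, *Apol9a* at 0.838 and *Mx1* at 0.511. The 4 lowest were among the 7 genes with at least 2-fold differences between HG and NG, and of the 5 highest (*Tor3a* is the fifth, at 72.8) none was. Fold changes of low genes also carry larger standard errors, 0.26 for *Apol9b* against 0.048 for *Ly6e*.

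The pathway around these effectors was read from lists of its parts. None of 21 interferon ligand genes passed the filter on low counts, 16 of them had 0 counts in every library, and the 21 had 86 counts in all. Of 5 receptor genes tested 1 was higher in HG, *Ifnar1*, from 49.3 ± 1.78 to 56.1 ± 2.21 CPM with a log2 difference of 0.19 ± 0.062 (adjusted p = 0.0276), and 1 was lower with CD200Fc in HG. Of 11 kinases, STATs and IRFs 7 were higher in HG and 0 lower, and 5 were lower and 1 higher with CD200Fc in HG. Among them *Irf7*, which amplifies interferon production, averaged 73.5 ± 3.05 CPM in NG (70.6 ± 5.88 with CD200Fc) and 166 ± 9.02 CPM in HG (73.8 ± 2.24 with CD200Fc). It rose by 1.18 ± 0.063 (adjusted p = 2.6e-13) and its interaction was -1.12 ± 0.09 (adjusted p = 8.44e-09). Of 8 inhibitors 2 were higher in HG, among them *Usp18*, which blocks the interferon receptor and removes Isg15 from proteins, by 0.62 ± 0.081 (adjusted p = 4.36e-06), and 1 was lower and 1 higher with CD200Fc in HG. Of 15 nucleic acid sensors and their signalling partners 10 were higher and 1 lower in HG, and 9 were lower and 1 higher with CD200Fc in HG; the kinase *Ikbke* rose by 0.92 ± 0.064 (adjusted p = 4.36e-11). Of 15 genes of the Ifit, Oas and Isg15 families 14 were higher in HG, with *Oas3* at 0.83 ± 0.055 (adjusted p = 1.58e-11), and 14 were lower with CD200Fc in HG.

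Other features of the libraries moved with the groups. The RNA quality and nuclear RNA genes present were 6, *Malat1*, *Neat1*, *Rn7sk*, *Rpph1*, *Mir6236* and *Rmrp*, the last at 0 counts. Their summed level was 10830 to 13417 CPM in HG and 8946 to 10157 in NG. It was 7688 to 8701 in NG+CD200Fc and 8334 to 9186 in HG+CD200Fc. In HG 3 of the 5 tested were higher than in NG. This sum pools genes of different courses. *Malat1* stood at 7760 to 9134 CPM in HG, at most 4985 in NG, at most 4852 in NG+CD200Fc and 5431 to 5708 in HG+CD200Fc. *Rn7sk* stood at 1821 to 3847 CPM in HG, 3594 to 5121 in NG and 1882 to 2309 in HG+CD200Fc. *Mir6236* ranged from 16.9 to 1234 CPM among the HG libraries, against at most 10.5 in NG. The 14 microglial markers summed to 4477 to 4709 CPM in NG, 4277 to 4347 in NG+CD200Fc, 3888 to 4443 in HG and 3894 to 4081 in HG+CD200Fc, so that the sum was below that of NG in all 3 other groups. Of the 13 tested, 4 were higher and 4 lower in HG than in NG, and 1 was higher and 5 lower in HG+CD200Fc than in HG. The 6 plasmacytoid dendritic cell markers summed to 352 to 421 CPM in HG, 242 to 251 in NG, 228 to 260.0 in NG+CD200Fc and 226 to 235 in HG+CD200Fc. Most of this sum is *Bst2*, 1 of the 43 genes, at 258 to 328 CPM in HG, 155 to 165 in NG and 134 to 149 in HG+CD200Fc. The sum is therefore no feature apart from the 43 genes. *Tcf4*, the next in level, stood at 58.3 to 64.2 CPM in HG and 56.6 to 61.1 in NG. Of the 5 tested, 2 were higher in HG and lower with CD200Fc in HG, *Bst2*, which is a member, and *Cox6a2*, at 3.76 to 4.09 CPM in HG, 1.67 to 2.12 in NG and 1.28 to 2.21 in HG+CD200Fc. *Siglech*, the defining marker of that list, had 15 counts in all libraries together and 0 in both high glucose groups.

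The 9 lymphocyte markers summed to 3.45 to 4.37 CPM in HG, 2.03 to 2.48 in NG, 2.86 to 3.10 in NG+CD200Fc and 2.25 to 2.73 in HG+CD200Fc, with *Ncr1* and *Klrb1c* at 0 in every library. Of the 4 tested, *Cd4* was higher in HG, at 2.27 ± 0.333 CPM against 0.810 ± 0.274 in NG (mean ± SD, n = 3), and lower with CD200Fc in HG, at 0.645 ± 0.201 CPM. The 9 endothelial and mural markers summed to 411 to 416 CPM in HG, 382 to 396 in NG, 379 to 423 in NG+CD200Fc and 446 to 506 in HG+CD200Fc. Of the 6 tested, 2 were higher and 1 lower in HG. *Vwf* was among the higher, at 235 to 238 CPM in HG, 136 to 146 in NG and 160.1 to 176 in HG+CD200Fc. The lower one, *Flt1*, stood at 159 to 167 CPM in HG, 228 to 251 in NG and 275 to 319 in HG+CD200Fc. In the other lists, 1 of 3 photoreceptor markers tested was lower in HG than in NG, 1 of 4 astroglial and Müller glial markers was higher and 1 lower, 1 of 2 granulocyte markers was lower, 0 of 2 neuronal and 0 of 1 erythroid markers were called, and no fibroblast marker passed the filter. The part of these features in the differences of the 43 genes was not tested.

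The authors' deposited table of comparisons gives 38 of the 43 genes as higher and 1 as lower in HG against NG, 35 as lower in HG+CD200Fc against HG, and 0 in NG+CD200Fc against NG. *Trim21* was the only gene called in the authors' deposited table and not here, and the log2 fold changes of the 43 differed by at most 0.0107.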

How the data were processed

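RNA sequencing of 12 libraries in 4 groups of 3 was analysed from the raw counts per gene that the authors deposited, which carry no normalization. Per the submitters' processing notes, the tools were STAR, featureCounts of the Subread package, Salmon, bcl2fastq, limma and edgeR, with build GRCm38. Neither annotation release nor strand setting was stated in the sources used. Another deposited file holds the authors' own log2 fold changes and p-values for 4 comparisons, used only to compare calls. From 55774 lines 287 duplicates were removed, leaving 55487 gene IDs. Without molecular identifiers, totals (2.15e+07 to 3.19e+07) describe counting error only.

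filterByExpr on the 4 groups kept 19182 genes. TMM scaling and a robust quasi-likelihood fit of the 4 group means (edgeR 4.0.16, R 4.3.3) followed, at a biological coefficient of variation of 0.0908. For each of 6 contrasts p-values were adjusted by Benjamini-Hochberg over all genes, and a gene was called at an adjusted p under 0.05. Standard errors are the size of the log2 fold change over the root of F. Coordinates and exon lengths are from GENCODE M21 (GRCm38), and promoter windows from RefSeq (GRCm38.p6). On simulated data for HG against NG the test recovered 29.9% of genes changed 1.25-fold, 67.2% of those changed 1.5-fold and 87.9% of those changed 2-fold, with 9 false calls among 18681 genes. The simulation changed 67, 67 and 66 genes at these folds. In the data 2244 genes were called higher and 2476 lower between HG and NG. With fewer changed genes the adjustment is stricter, so the recovered shares do not carry over to the data.

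Values are given in every library for the genes with the largest change between HG and NG and the highest level per length in each role group, those with the smallest p in each comparison with CD200Fc or in the interaction, and those called against the direction of the rest, and *Ddx60* was added after its values were seen. Members, lists and this rule were chosen with earlier results of these data known. Whether the replicate numbers of the labels pair the libraries was not tested. Deviations from the group means had a median correlation of 0.032 between libraries of the same number. Between libraries of other numbers the median was -0.017. These ranges overlap and cannot settle whether the libraries are paired, and the main fit used no pairing. Alternatives were DESeq2 size factors, upper quartile scaling, no filter, a threshold of 1 CPM and 10 counts in at least 3 libraries, the DESeq2 1.42.0 test, voom in limma 3.58.1, a replicate block, a fit to only the groups compared, and leaving out each library. No 2 libraries of a group were alike within sampling noise (chi-square per degree of freedom at least 3.63).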

Additional observations from a re-analysis of the deposited data

Results flagged for a closer look

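The difference with CD200Fc in high glucose and that in normal glucose were compared directly by the interaction term, and the test set 30 of the 43 genes apart, all with a more negative difference in high glucose. At -1 or beyond on the log2 scale were *Apol9a* (-2.39), *Apol9b* (-2.20), *Isg20* (-1.59), *Mx1* (-1.56), *Ddx60* (-1.36), *Ifi27l2a* (-1.17) and *Bst2* (-1.04). Next came *Mx2* (-0.98), *Trim30a* (-0.95), *Ifi44* (-0.92), *Rsad2* (-0.92), *Sp100* (-0.90), *Phf11d* (-0.85), *Slfn5* (-0.84), *Samd9l* (-0.81), *Parp14* (-0.81), *Cmpk2* (-0.79) and *Lgals9* (-0.78). The remaining genes were *Xaf1* (-0.73), *Helz2* (-0.68), *Dtx3l* (-0.63), *Parp9* (-0.62), *Slfn2* (-0.57), *Znfx1* (-0.57), *Ifi35* (-0.49), *Rtp4* (-0.41), *Pml* (-0.40), *Epsti1* (-0.38), *Lgals3bp* (-0.32) and *Shisa5* (-0.28). The interaction of *Epsti1* was called in 7 of 19 alternative settings.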

How the results depend on the processing

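Among the 43 genes no call changed sign under any alternative. Of the 38 calls between HG and NG 36 held in all 20 settings (not *Daxx* and *Slfn8*), of the 35 between HG+CD200Fc and HG 34 (not *Adar*), and of the 30 interactions 24 held in all 19 (not *Epsti1*, *Ifi35*, *Ifi44*, *Mx1*, *Rtp4* and *Shisa5*). Median differences of the 43 ran from 0.55 to 0.65, from -0.73 to -0.60 and from -0.68 to -0.57 in these comparisons.

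Members lower in HG+CD200Fc than in NG+CD200Fc were 1 with no filter, the stricter filter, DESeq2 or the replicate block and 2 with limma voom, against 0. Members lower in HG+CD200Fc than in NG were 7 with no filter, limma voom or only the groups compared, against 4, and 1 interaction was higher with limma voom, against 0. Leaving out single libraries gave 2 to 5 members higher and 0 to 3 lower between HG+CD200Fc and NG+CD200Fc, 1 to 6 lower between HG+CD200Fc and NG, and 0 to 1 interaction higher.

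Over all genes, NG+CD200Fc against NG gave 0 calls, 3 higher and 18 lower with no filter, 9 lower with only the groups compared, 2 lower with the replicate block, 1 lower with limma voom and 0 to 8 lower without single libraries. For HG+CD200Fc vs NG+CD200Fc, limma voom gave 1404 higher and 1193 lower and the replicate block 1113 lower, against 892 and 701, with 193 to 1135 and 84 to 1153 without single libraries. Without single libraries HG was higher than NG for 1447 to 2198 genes, and HG+CD200Fc against NG gave 1068 to 1882 higher and 1149 to 2404 lower. The cause of these shifts was not tested, and the fits without single libraries also have fewer libraries.

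With the replicate number as a block, 37 members were higher in HG than in NG, 35 lower in HG+CD200Fc than in HG and 30 interactions lower, the same counts as without it. Of the 30 interactions 29 were shared, *Ifi44* was lost and *Parp12* was gained. The block also added *Pml* and *Lgals9* between HG+CD200Fc and NG+CD200Fc and *Ifi27l2a* and *Rtp4* between HG+CD200Fc and NG. Deviations of libraries with the same number correlated from -0.069 to 0.18 over 18 pairs, and those with other numbers from -0.21 to 0.24 over 36 pairs. With the looser promoter core AANNGAAA, 85.3% of the 34 members had a match, against 26.7% of all genes.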
